A study of Homo sapiens with 4 samples.

Results

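Focal adhesions are the patches of plasma membrane where integrins hold the extracellular matrix on the outside and actin filaments on the inside. The genes described here encode 10 proteins of the inner plaque of these patches: the kinase PTK2 and the pseudokinase ILK, the integrin activators TLN1, FERMT1 and FERMT2, the scaffolds PXN, TGFB1I1 and BCAR1, and the actin linkers VCL and ZYX. They were selected by symbol among 61541 gene rows, all 10 were found, and all 10 were among the 15778 genes with enough counts to be tested. RNA came from H1299, an established human lung carcinoma line, in 2 libraries treated with phosphate-buffered saline (PBS, the control) and 2 treated with nanoparticles made from ginseng, and both groups grew in the same serum-supplemented medium. The labels name no dose, exposure time or plant part, and do not say whether replicates were separate cultures, so every p-value rests on library-to-library spread that could be purely technical. The study asked whether ginseng particles slow cell migration through contact with the cell surface, and the sequencing looked at transcripts linked to migration.

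Talin and the kindlins bind the tails of integrin beta chains and switch the integrins to their active form. Talin then pulls on actin and unfolds under force, which opens binding sites for vinculin. Paxillin collects focal adhesion kinase (FAK, encoded by PTK2), SRC and their substrate p130Cas (BCAR1) into a signalling complex that drives adhesion turnover and cell spreading, while ILK holds a structural complex with PINCH and parvin proteins, and zyxin arrives at adhesions and stress fibres under tension. Much of this regulation acts through phosphorylation and recruitment of existing protein, which mRNA counts do not measure.

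Counts on genes ran from 22252686 to 24979081 per library, and 13.7% to 14.8% of reads fell on no gene. Of the genes the line is known to express, VIM, the mesenchymal intermediate filament gene, stood at 2186 to 2388 CPM (counts per 1000000 counts on genes, with TMM scaling) and NRAS at 204 to 211 CPM. Of the 6 markers of other cells, the epithelial genes EPCAM and CDH1, the endothelial gene PECAM1 and the liver gene ALB had at most 9 counts in any library, the blood cell gene PTPRC had 0, and the fibroblast gene COL1A1 had 15 to 21.

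None of the 10 plaque genes passed an adjusted p of 0.05 in the nanoparticle against PBS comparison (edgeR quasi-likelihood test, Benjamini-Hochberg adjustment over all tested genes), against 2.58% of all tested genes. The values nearest to the threshold were those of TGFB1I1, PXN and FERMT1, each lower in both nanoparticle libraries than in either PBS library, with log2 fold changes of -0.29, -0.092 and -0.15. BCAR1 was the other member whose groups did not overlap, also lower, so that 4 of 10 members were lower without overlap, against 23.2% of all tested genes. The same 4 had an unadjusted p under 0.05, against 7.61% of all tested genes for lower values. DESeq2 called 0 members, against 0.57% of all genes, and limma-voom called 1, PXN (adjusted p = 0.0447), against 2.69%. The median log2 fold change of the members was -0.043, with 8 of 10 below 0, beside a median of 0.00056 and 49.8% below 0 over all tested genes.

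**Figure D1:**
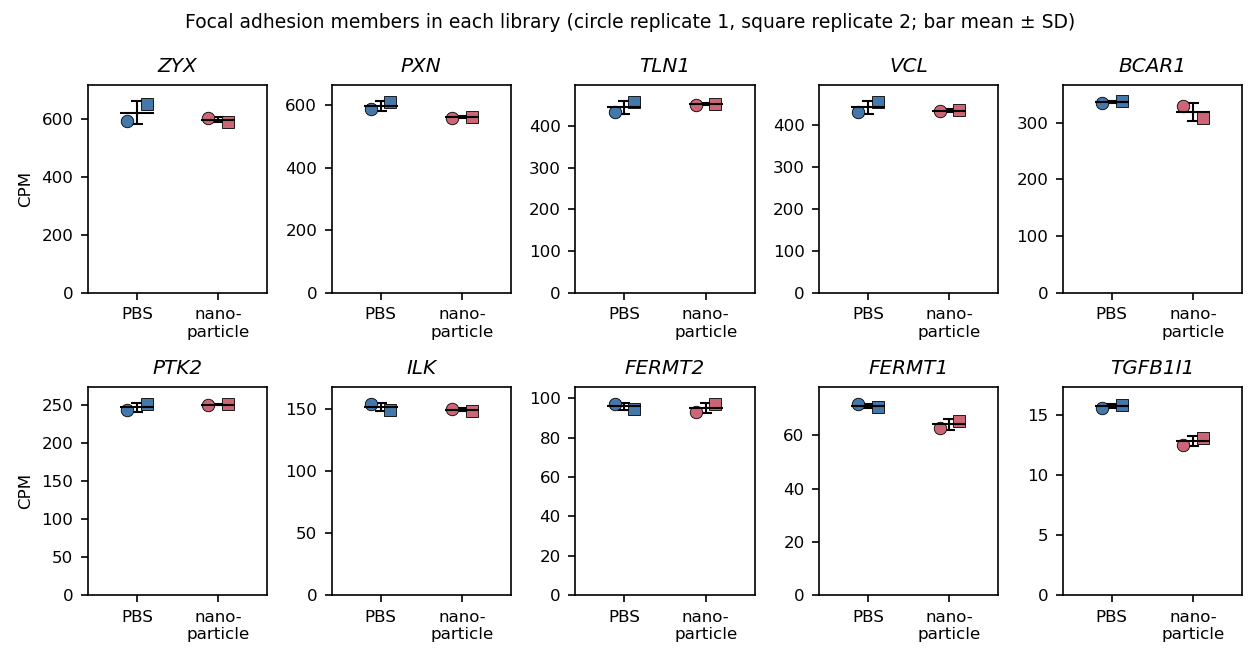
CPM of each of the 10 members in each library, with axes starting at 0; circles are replicate 1, squares replicate 2, and bars give the mean ± SD of 2 libraries. TGFB1I1, FERMT1, PXN and BCAR1 have both nanoparticle libraries below both PBS libraries, and the other 6 overlap.

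Among the scaffolds, PXN encodes paxillin, the LIM-domain adaptor that docks FAK and the vinculin tail (chromosome 12, 120210439 to 120265771, GRCh38). It was at 586 and 609 CPM in the PBS libraries and at 558 and 563 CPM in the nanoparticle libraries. The nanoparticle libraries lay close together and below both controls. The log2 fold change was -0.092 (SE 0.027), a change of -6.19% with a 95% interval from -9.72% to -2.51% before correction for multiple tests, and the edgeR adjusted p was 0.0715. PXN passed in 5 of 14 alternative settings, with adjusted p over all of them from 0.0385 to 0.556.

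TGFB1I1 encodes Hic-5, the paxillin relative that also enters the nucleus as a coactivator (chromosome 16, 31471585 to 31477960). Its counts were 347 and 354 in PBS and 313 and 326 with nanoparticles, or 15.6 and 15.8 against 12.5 and 13.1 CPM. Both treated libraries were lower, and the gap between groups was wider than the gap within either. The log2 fold change was -0.29 (SE 0.083, 95% interval -0.47 to -0.12, edgeR adjusted p = 0.0655). This was the largest change among the members and it belonged to the least abundant of them. TGFB1I1 passed in 2 of 14 alternatives (adjusted p from 0.0232 to 0.701).

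BCAR1 encodes p130Cas, whose substrate domain is phosphorylated by SRC when it is stretched (chromosome 16, 75228187 to 75268053). It had 335 and 338 CPM in PBS against 330 and 308 CPM with nanoparticles. Nanoparticle replicate 1 lay just under the controls and replicate 2 clearly under them. The log2 fold change was -0.078 (SE 0.033, edgeR adjusted p = 0.225), and it was -0.029 without nanoparticle replicate 2 and -0.13 without nanoparticle replicate 1. With length and GC trends removed it was -0.030.

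Motifs of 3 regulators linked to adhesion genes were searched in the 250 bases before each RefSeq start (GRCh38.p14), on both strands. They were the CArG box of SRF, GGAATG of the TEAD factors that work with YAP, and TGANTCA of AP-1, and TATAAA was searched as well. RefSeq windows matched 8 members, with 15 starts among them. PTK2 and FERMT1 had no window and were not searched. There were 4 matches, printed 5′ to 3′ on the strand of the gene with the motif in capitals, each in a window of 30 bases:
TGFB1I1: tggaggggagCCAAATTTGGcttgggtgaa
PXN: tgtttccaggaaCATTCCtcttccttaggt
VCL: gcccctcccttaGGAATGggggaggggcgg
BCAR1: ataggacggagTGAGTCAtcctgggatcat
The TGFB1I1 window is chr16:31473144-31473173 on the plus strand, 51 to 42 bases before 1 of its 3 starts, and holds a CArG box, as do 1.16% of all 35116 RefSeq windows. The PXN window is chr12:120250213-120250242 on the minus strand, before the downstream of its 2 starts, with GGAATG on the opposite strand. The VCL window is chr10:73997933-73997962 on the plus strand, and GGAATG occurs in 11.9% of all windows. The BCAR1 window is chr16:75268053-75268082 on the minus strand, before 1 of its 5 starts, and TGANTCA occurs in 6.57% of all windows. TATAAA, in 10.7% of all windows, was in none of the 15. The TGFB1I1, PXN and VCL windows lie inside the gene spans printed in this report, before internal starts. A match describes these letters only. SRF itself had 154 and 162 CPM in PBS and 159 and 165 CPM with nanoparticles (log2 0.041, edgeR adjusted p = 0.625).

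Of the 2 kindlin genes among the integrin activators, FERMT1 had separate groups and FERMT2 did not. FERMT1, which encodes kindlin-1, the kindlin of epithelia (chromosome 20, 6074845 to 6123544), had 71.7 and 70.5 CPM in PBS and 62.6 and 65.6 CPM with nanoparticles. FERMT2, which encodes the widely expressed kindlin-2 (chromosome 14, 52857268 to 52952435), had 97.3 and 94.8 CPM against 93.2 and 96.9 CPM. The log2 fold changes were -0.15 for FERMT1 (SE 0.044, edgeR adjusted p = 0.0757) and -0.015 for FERMT2 (SE 0.039, adjusted p = 0.894, 95% interval -0.096 to 0.066). The ratio of FERMT1 to FERMT2 per kilobase, which does not depend on library scaling, was 0.482 and 0.486 in PBS and 0.440 and 0.442 with nanoparticles. It did not overlap between groups, although with 2 libraries a group the smallest two-sided p of an exact permutation test is 0.333. For single genes, 46.9% of all tested genes did not overlap in either direction. FERMT1 passed in 4 of 14 alternatives (adjusted p over all 14 from 0.0336 to 0.635). Among the 4 was removal of the trend with transcript length, which moved its log2 fold change to -0.18 (adjusted p = 0.0336).

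TLN1, the talin that links integrins to actin in most cells (chromosome 9, 35696948 to 35732395), had 434 and 456 CPM in PBS and 451 and 453 CPM with nanoparticles. Both treated libraries lay between the controls. Its log2 fold change was 0.023 (SE 0.029, 95% interval -0.038 to 0.084, edgeR adjusted p = 0.752). TLN1 has the longest principal transcript of the members, 8823 bases, and with the length trend removed the value was -0.058 (adjusted p = 0.394).

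Neither the kinase gene PTK2 nor the pseudokinase gene ILK showed a difference beyond its spread. PTK2, which encodes FAK (chromosome 8, 140657900 to 141002216) had 243 and 252 CPM in PBS and 250.3 and 251 CPM with nanoparticles, both inside the range of the controls. The 95% interval of its log2 fold change ran from -0.046 to 0.086, or from -3.16% to 6.17%. ILK, whose product ties integrin tails to parvins (chromosome 11, 6603708 to 6610874), had 154 and 149 CPM against 150.1 and 148 CPM. Its log2 fold change was -0.023 (SE 0.035, 95% interval -0.095 to 0.049, edgeR adjusted p = 0.8).

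The actin linkers also overlapped between groups. VCL, which encodes vinculin (chromosome 10, 73995193 to 74121363), had 432 and 454 CPM in PBS and 433 and 437 CPM with nanoparticles. Its log2 fold change was -0.027 (SE 0.029, 95% interval -0.088 to 0.034, edgeR adjusted p = 0.701). ZYX, which encodes zyxin (chromosome 7, 143381080 to 143391111), had 595 and 651 CPM in PBS and 604 and 592 CPM with nanoparticles. PBS replicate 2 stood above the other 3 libraries, which lay between 592 and 604 CPM. The log2 fold change of ZYX was -0.059 (SE 0.033, edgeR adjusted p = 0.375). It was -0.13 without PBS replicate 1 and 0.0068 without PBS replicate 2.

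**Figure D2:**
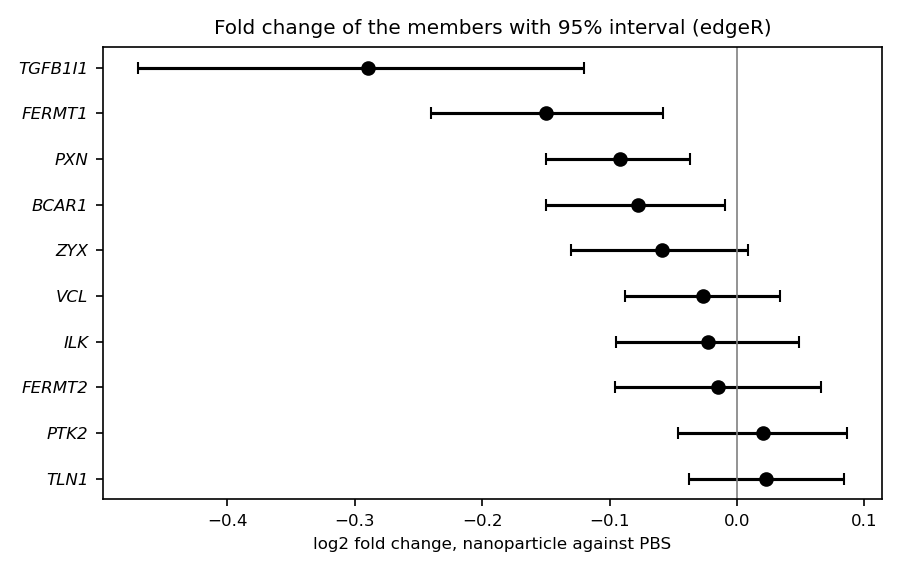
log2 fold change of each member, nanoparticle against PBS, with its 95% interval from the edgeR fit, not corrected for multiple tests; negative values are lower with nanoparticles. The intervals of TGFB1I1, FERMT1, PXN and BCAR1 lie below 0, and those of the other 6 include 0.

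The PBS libraries differed from each other for several members. PBS replicate 2 was above PBS replicate 1 by 0.13 for ZYX, 0.072 for TLN1, 0.071 for VCL, 0.054 for PXN and 0.049 for PTK2 on the log2 scale. For these members the corresponding differences between the nanoparticle libraries were between -0.029 and 0.014. The nanoparticle difference, replicate 2 minus replicate 1, was the larger in size for BCAR1 (-0.098 against 0.011 in PBS) and FERMT1 (0.066 against -0.025). It was also the larger for TGFB1I1 (0.065 against 0.022) and FERMT2 (0.057 against -0.037). For ILK it was the smaller (-0.017 against -0.047 in PBS). For ZYX, TLN1, VCL, PTK2, ILK and FERMT2 the gap between the PBS libraries exceeded the gap between group means. Over the 11104 tested genes with a mean of at least 5 CPM, the size of the replicate difference had a log2 median of 0.053 in PBS and 0.051 with nanoparticles, and over the 10 members it was 0.048 and 0.023.

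Compared per kilobase of principal transcript, which allows levels of different genes to be set side by side, ZYX was the most abundant member at 245 CPM per kb (range over the 4 libraries 237 to 261). PXN followed at 153, BCAR1 at 102, VCL at 79.9 and ILK at 72.5 CPM per kb. TLN1 (50.9) and PTK2 (50.2) came next and overlapped in their ranges, while every other pair of neighbours was separate over the 4 libraries. FERMT2 stood at 28.4, FERMT1 at 13.1 and TGFB1I1 at 7.91 CPM per kb. The levels of PXN, VCL, ILK and BCAR1 may be too low if reads over exons shared with other genes went uncounted, so their places in this order carry that limit, which was not tested.

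In most of the families 1 member carried most of the mRNA. Per kilobase TLN1 was 17.7 times as abundant as TLN2, the second talin, and PTK2 was 119.6 times as abundant as PTK2B, the FAK relative PYK2. PXN exceeded TGFB1I1 by 19.5 times and LPXN, the leukocyte paxillin relative, by 98.3 times. FERMT2 exceeded FERMT3, the kindlin of blood cells, by 55.4 times. Of the p130Cas family BCAR1 had 7462 to 8244 counts. Its relative NEDD9 had 2, 0, 0 and 2 counts and CASS4 had 2, 0, 2 and 4, in the order PBS replicates 1 and 2 and nanoparticle replicates 1 and 2. EFS had 0 in all 4 libraries, which allows up to 0.135 CPM in the shallowest of them for counting error alone. Vinculin had 0.731 times the level per kilobase of its relative CTNNA1, the alpha-catenin of cell junctions. Gaps were also smaller between FERMT1 and FERMT2, at 0.463 times, and between ZYX and its relative TRIP6, at 3.88 times. These ratios are means over the 4 libraries. The largest of them have denominators of few counts, 44 to 52 for PTK2B, 63 to 73 for LPXN and 25 to 35 for FERMT3. Over the libraries PTK2 to PTK2B ran from 103 to 135, PXN to LPXN from 92.7 to 105 and FERMT2 to FERMT3 from 46.9 to 62.5.

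**Figure D3:**
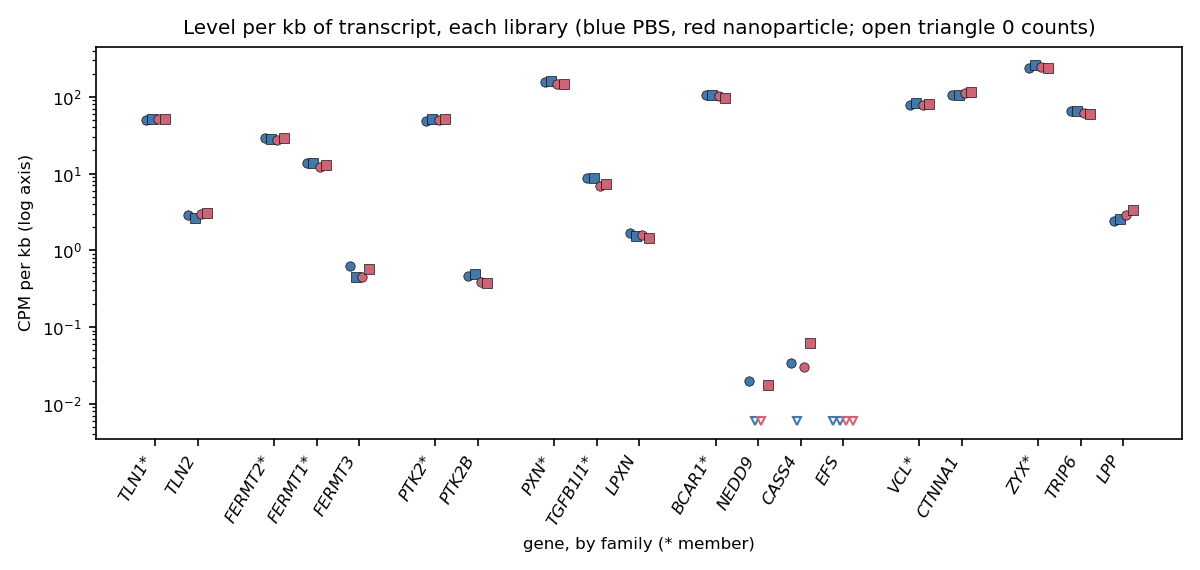
CPM per kb of principal transcript on a log axis for the members (starred) and their relatives by family, in each library (circles replicate 1, squares replicate 2); open triangles mark 0 counts. PXN, PTK2, TLN1 and BCAR1 lie at least an order of magnitude above the relatives in their families.

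The ratio of PXN to TGFB1I1 per kilobase was 17.9 and 18.3 in PBS and 21.3 and 20.5 with nanoparticles, without overlap. That of VCL to CTNNA1 was 0.740 and 0.777 in PBS and 0.710 and 0.697 with nanoparticles, again without overlap. TLN1 to TLN2, PTK2 to PTK2B and TGFB1I1 to LPXN did not overlap either, while FERMT2 to FERMT3, PXN to LPXN and ZYX to TRIP6 did. For single genes, 46.9% of all tested genes did not overlap in either direction, and the share over all gene pairs was not computed. CTNNA1 itself had 399.3 and 399.5 CPM against 417 and 429 CPM (log2 fold change 0.082, edgeR adjusted p = 0.13). The relatives TLN2 (log2 0.13, adjusted p = 0.248), PTK2B (-0.33, 0.437), LPXN (-0.076, 0.878), FERMT3 (-0.066, 0.935) and TRIP6 (-0.10, 0.121) did not pass in the same edgeR fit.

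The mRNA of LPP, the zyxin relative known as lipoma preferred partner, was the only one to pass the test among 94 tested genes of 8 further adhesion lists, and it was higher with nanoparticles. It had 43.3 and 47.1 CPM in PBS and 53.0 and 61.1 CPM with nanoparticles. The groups did not overlap, and nanoparticle replicate 2 was the highest. The log2 fold change was 0.34 (95% interval 0.21 to 0.46, edgeR adjusted p = 0.00421). Its principal transcript of 18277 bases is far longer than that of any member, and with the length trend removed the log2 fold change was 0.21 (adjusted p = 0.063). The call was lost on leaving out PBS replicate 1 (log2 0.28, adjusted p = 0.506) or PBS replicate 2 (log2 0.40, adjusted p = 0.47), where 0 of all tested genes passed. It was also lost without nanoparticle replicate 2 (log2 0.23, adjusted p = 0.182), with length and GC trends removed (log2 0.20, adjusted p = 0.0662) and without a low-count filter (log2 0.35, adjusted p = 0.551), and it held without nanoparticle replicate 1 (log2 0.43, adjusted p = 0.00162). Within the zyxin family, ZYX to LPP per kilobase went from 100.6 and 101.5 in PBS to 83.5 and 71.1.

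In the list of LIM-domain proteins near zyxin, LPP was thus 1 of 14 tested genes called, with a list median of -0.039. The smallest p after LPP was that of PDLIM7, a PDZ and LIM adaptor on actin (log2 -0.11, edgeR adjusted p = 0.0991), and 8 of the 14 were lower without overlap, against 23.2% of all tested genes and 28 of the 94 genes of the 8 lists. No gene passed among 14 tested integrin activators and tail binders (median 0.011). The smallest p there was that of FBLIM1, which encodes migfilin (log2 -0.22, adjusted p = 0.0641). None passed among 7 partners of ILK (median -0.017), where ILKAP, an ILK-associated phosphatase (-0.13, 0.155), and LIMS1, which encodes PINCH-1 (0.091, 0.237), had the smallest p.

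Of 8 paxillin partners none passed (median 0.022), with PAK2 (log2 0.061, edgeR adjusted p = 0.383) and ARHGEF6 (0.12, 0.734) nearest. Of 16 tested genes of FAK, SRC and CAS signalling none passed (median 0.015), with the RAS exchange factor SOS1 (0.15, 0.163) and the FAK inhibitor and autophagy protein RB1CC1 (0.094, 0.174) nearest. Of 15 tested actin linkers none passed (median -0.0085). The nearest were ENAH, the actin elongation factor MENA (0.17, 0.0744), and SVIL, which encodes supervillin (-0.12, 0.124).

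Turnover and contractility genes (11 tested, median -0.032) held no call, with the myosin light chain MYL12A (log2 -0.069, edgeR adjusted p = 0.204) and the talin-cleaving calpain CAPN1 (-0.071, 0.293) nearest. Genes of SRF, its MRTF coactivators and their contractile targets (9 tested, median 0.024) held none either, with TAGLN (0.21, 0.536) and MRTFB (0.11, 0.603) nearest. Over the 94 genes, 1 passed, against 2.58% of all tested genes. Of the fold changes 48 were above 0 and 46 below, and the median was 0.0054.

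**Figure D4:**
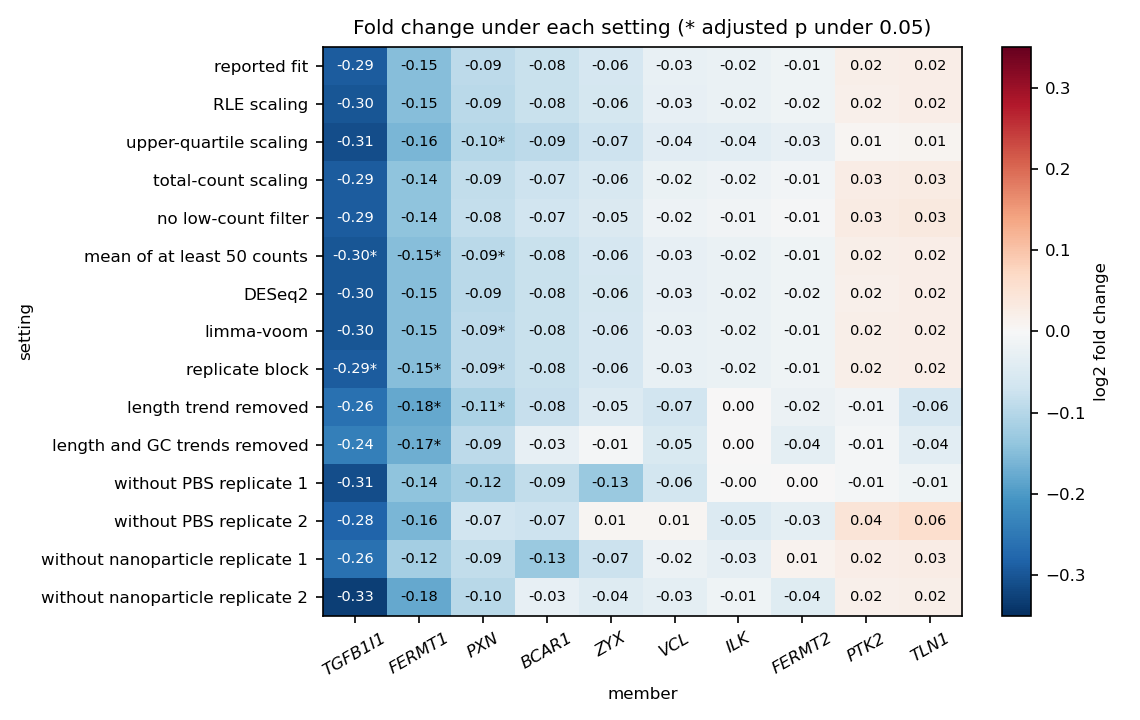
log2 fold change of each member (columns) in the reported fit and 14 alternative settings (rows), with blue for lower and red for higher with nanoparticles and a star for an adjusted p under 0.05. TGFB1I1, FERMT1, PXN and BCAR1 are negative in every row, stars appear in the columns of TGFB1I1, FERMT1 and PXN, and the other 6 columns change sign in at least 1 row.

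Exons of some members overlap those of genes on the other strand in GENCODE 29, and since no source used here says whether HTSeq counted by strand, reads over these stretches cannot be told apart. PXN shares 918 exonic bases with PXN-AS1, which had 354 to 402 counts. VCL shares 1109 with AP3M1, which had 1751 to 2203 counts, and ILK shares 2374 with TAF10, which had 78 to 90 counts. TGFB1I1 shares 118 with a gene of 10 or 11 counts, TLN1 shares 61 with CREB3, which had 2005 to 2283 counts, and FERMT1 shares none. BCAR1 shares 788 with AC009078.3 on its own strand, where counting by strand would not separate them, and that gene had 14 to 29 counts.

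For TGFB1I1, the member with the smallest p, the tested genes with the nearest profile over the 4 libraries (Euclidean distance of centred log2 CPM) were ENSG00000260077 (0.0162), ENSG00000280433 (0.017) and PLEKHN1 (0.0226). PLEKHN1 had 12.17 and 12.2 CPM in PBS and 9.55 and 10.1 CPM with nanoparticles (edgeR adjusted p = 0.0841).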

How the data were processed

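Polyadenylated RNA of 4 H1299 libraries was sequenced from stranded TruSeq libraries, per the labels' protocols. The authors deposited raw read counts in a separate file for each library, with Ensembl gene IDs. The submitters' processing notes name GRCh38 and the tools HTSeq 2.0.2, STAR 2.7.6a, cutadapt 3.5, bcl2fastq 2.20 and Picard. Groups followed the treatment label. Titles of the nanoparticle libraries also say control.

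Reads on no gene were left out. Symbols came from a gene name table (61369 of 61541 rows) and GENCODE 29, which also gave positions and principal transcript lengths. Genes were filtered (filterByExpr), scaled (TMM) and tested with edgeR 4.0.16 in R 4.3.3 at a threshold of 0.05, over all genes, and the procedure was tested on simulated data. Alternatives were other scalings, filters, DESeq2 1.42.0, limma-voom (limma 3.58.1), a replicate block, length and GC trends removed by robust splines (MASS 7.3.60.0.1) with 4 degrees of freedom, and each library left out. The members, lists and tests were chosen with earlier results of these data known. Named genes were the members, their relatives, listed genes past the threshold, the 2 smallest p of each list and the 3 nearest profiles. Motifs and the sequences shown were chosen after the fold changes were known. Some items that the lists or this rule cover are not reported individually here. Figures used matplotlib 3.10.9.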

Additional observations from a re-analysis of the deposited data

How the results depend on the processing

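Of all tested genes 407 passed. The count was 0 without a low-count filter (smallest adjusted p = 0.544, with 2297 genes under 0.05 before adjustment), 90 by DESeq2, 413 with upper-quartile scaling, 602 with the stricter filter (genes averaging 50 counts or more), 759 with the replicate number as a block, 214 with the length trend removed, 267 with length and GC trends removed, and 0 to 200 with 1 library left out. Members called numbered 0 in the reported fit, 1 with upper-quartile scaling, limma-voom, or length and GC trends removed, 2 with the length trend removed, 3 with the stricter filter and 3 with the block, and 0 whichever library was left out. Among other adhesion genes 1 passed, against 2 with upper-quartile scaling, 3 with total-count scaling, 0 without a low-count filter, 4 with the stricter filter, 4 with the block, 2 with the length trend removed and 0 to 2 with 1 library left out. WTIP and SVIL were the 2 genes called with the length trend removed, WTIP being named after its values were seen.

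PXN passed with upper-quartile scaling (log2 -0.10), the stricter filter (-0.093), limma-voom (-0.092), the block (-0.092) and the length trend removed (-0.11). TGFB1I1 passed with the stricter filter (-0.30) and the block (-0.29), and FERMT1 with these 2 (-0.15 each) and with length (-0.18) or length and GC trends removed (-0.17). Signs turned for PTK2 (-0.011), TLN1 (-0.058) and ILK (0.00067) with the length trend removed, and for PTK2 (-0.0081), TLN1 (-0.036) and ILK (0.0013) with length and GC trends removed. With 1 library left out, log2 fold changes ran from -0.0061 to 0.044 for PTK2, -0.014 to 0.059 for TLN1, -0.064 to 0.0079 for VCL, -0.13 to 0.0068 for ZYX, -0.043 to 0.013 for FERMT2, -0.12 to -0.066 for PXN, -0.33 to -0.26 for TGFB1I1, -0.18 to -0.12 for FERMT1, -0.13 to -0.029 for BCAR1 and -0.047 to -0.0011 for ILK. In those fits the lone library of a group is assumed to vary like the other group, and fewer residual degrees of freedom remain. The cause of the other differences was not tested.

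Deviations of same-numbered libraries had a correlation of 0.035 across genes, so the replicate numbers are not treated as pairs. Replicate 2 nevertheless had the higher mitochondrial share in both groups (0.428% against 0.311% in PBS, 0.512% against 0.371% with nanoparticles). It also had fewer reads on no gene (14.54% against 14.84%, and 13.66% against 14.28%). Whether same-numbered libraries share a batch was not tested. TGFB1I1, at 313 to 354 counts, is the member with the least depth and the widest interval.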
